A study of Mus musculus with 6 samples.

Results

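From the genes that take up dietary fatty acids into the enterocyte and make them ready for use, 8 were chosen. These were the transporters Cd36, Slc27a2 and Slc27a4, cytosolic binding proteins Fabp1 and Fabp2, acyl-CoA synthetases Acsl3 and Acsl5, and the acyl-CoA binding protein Dbi. They were taken by name from the count files, where all 8 were found among 23284 genes, and all 8 passed the filter on low counts, as did 12106 genes in all. RNA came from intestine, labelled as jejunum and ileum together, of male mice aged 8 weeks that went without food overnight and then ate for 6 h. The groups were wild-type (WT) and SHP-KO, with 3 libraries each. SHP-KO mice lack SHP, the product of Nr0b2, a nuclear receptor without a DNA-binding domain that represses other nuclear receptors. Both groups had the same sex, age and feeding. The sources used here do not give the strain, the litters, the kind of knockout allele, any pooling of animals or the share of jejunum to ileum.

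Long-chain fatty acids released from dietary fat in the gut lumen cross the brush border, are bound in the cytosol by small carrier proteins and are coupled to coenzyme A, which traps them in the cell. The acyl-CoA pool then feeds triglyceride synthesis for chylomicrons or oxidation in mitochondria and peroxisomes. Fabp1 is the liver-type and Fabp2 the intestinal-type binding protein, and jejunal enterocytes are known for making both in large amounts. Several of these genes are textbook targets of the PPAR family of nuclear receptors, which bind a direct repeat of similar half-sites with a spacer of a single base.

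The DNA just upstream of a RefSeq start is shown for the genes with the 3 largest rises and for Fabp2, the most abundant of the 8. These stretches are given because nuclear receptors that SHP can repress act on such half-sites. Each sequence holds the 250 bases before the RefSeq start (build GRCm38.p6, which differs from the mm9 build of the count files), written 5′ to 3′ on the gene's strand. Where each start lies relative to the counted exons was not checked, so a window may lie inside its gene. Whether a gene has starts beyond those listed was not checked either. Capitals mark matches, on either strand, to the direct repeat (AGGNCA, any base, then AGGTCA), the half-site AGGTCA or the CDX motif TTTATNG, which overlap where they share letters. The windows are chr6:71199629-71199878 (plus strand) for Fabp1, chr5:17835897-17836146 (minus strand) for Cd36, chr2:126552774-126553023 (plus strand) for Slc27a2 and chr3:122894822-122895071 (plus strand) for Fabp2.
Fabp1: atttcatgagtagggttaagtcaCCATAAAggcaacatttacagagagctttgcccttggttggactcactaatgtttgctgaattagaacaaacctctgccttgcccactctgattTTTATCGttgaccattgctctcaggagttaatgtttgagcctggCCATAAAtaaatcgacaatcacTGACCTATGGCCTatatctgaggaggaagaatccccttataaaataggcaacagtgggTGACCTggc
Cd36: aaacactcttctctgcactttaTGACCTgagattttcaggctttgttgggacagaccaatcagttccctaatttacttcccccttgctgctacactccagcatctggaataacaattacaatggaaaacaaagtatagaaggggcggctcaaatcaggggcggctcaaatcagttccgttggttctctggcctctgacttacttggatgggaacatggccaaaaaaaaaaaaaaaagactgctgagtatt
Slc27a2: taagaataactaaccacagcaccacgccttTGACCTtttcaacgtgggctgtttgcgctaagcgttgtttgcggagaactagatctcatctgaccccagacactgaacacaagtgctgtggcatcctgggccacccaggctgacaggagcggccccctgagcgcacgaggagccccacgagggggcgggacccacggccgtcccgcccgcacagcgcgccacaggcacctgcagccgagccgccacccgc
Fabp2: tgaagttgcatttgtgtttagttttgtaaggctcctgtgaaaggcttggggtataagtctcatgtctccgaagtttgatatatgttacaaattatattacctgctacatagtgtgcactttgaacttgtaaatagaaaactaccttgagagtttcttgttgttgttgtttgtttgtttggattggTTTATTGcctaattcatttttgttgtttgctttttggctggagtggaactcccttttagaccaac

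The Fabp1 window held the direct repeat, read on the opposite strand as TGACCTATGGCCT, from 67 to 55 bases upstream of the start. The repeat's letters were chosen with the Fabp1 sequence in view. Only 27 of 32851 RefSeq windows of this length (0.0822%) held it, and none of the other 8 windows of these genes did (Dbi has 2 starts in the table). Of the 27 genes with such a window 13 were tested, of which 6 were higher in SHP-KO, 2 were lower and 5 did not pass, where 35.2% of all tested genes were higher and 35.4% lower. Their median log2 fold change was 0.26, or 0.19 over the 12 tested genes other than Fabp1, which had served to choose the letters. The single half-site was found in the windows of Fabp1, Cd36 and Slc27a2, and in 14% of all windows. CDX letters were found in the windows of Fabp1, Fabp2 and Dbi, against 9.81% of all windows. The letters AGATAA for the zinc-finger factors Gata4 and Gata6 were in 9.99% of all windows. CAAAGTCC for HNF4 was in 1.2% and CAAGGTCA for LRH-1 in 1.33%. None of these letters was in a window of the 8 genes. Only these exact letters were searched, and other forms that these factors may read were not. The CDX match TTTATCG in the Fabp1 window reads CGATAAA on the other strand, which holds the shorter letters GATAA. A match describes letters and is not a measured binding site.

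As a check of the labels, Nr0b2 had 31, 14 and 23 counts in WT and 1, 0 and 0 in SHP-KO. Total counts were 11265437 to 13511800 in WT and 7956528 to 9289543 in SHP-KO. Enterocyte markers were high in both groups, with a summed level of 46246 to 46497 CPM (counts relative to the library's TMM-scaled total) in WT and 44563 to 45077 in SHP-KO over 12 genes. Of these 12 genes 7 were higher and 5 lower, from Treh at 1.84-fold higher to Sis at 2.36-fold lower, and Anpep made up 15177 and 14710 CPM of the sums. Segment and wall markers differed between the groups: of 10 markers of proximal small intestine 9 were higher in SHP-KO and 1 lower, of 11 ileum markers 4 were higher and 7 lower, and all 12 smooth muscle markers were higher. The proximal list includes Gata4 and the ileum list Fabp6 and Nr1h4, all described again below. The 1 lower proximal marker was Slc40a1 (10.96-fold). The 4 higher ileum markers were Slc10a2 (2.20-fold), Amn (1.51-fold), Pyy (1.41-fold) and Nts (1.23-fold). The summed proximal markers were 5136 to 5228 CPM in WT and 25441 to 25889 in SHP-KO, the summed ileum markers 16389 to 16820 and 3908 to 3938 CPM, and the summed muscle markers 406.4 to 413.7 and 1513 to 1545 CPM. Fabp6 made up 10792 CPM of the ileum sum in WT and 144.5 CPM in SHP-KO, and the other 10 ileum markers summed to 5743 to 5791 and 3760 to 3798 CPM. Apoa4 made up 3525 and 18859 CPM of the proximal sum, and the other 9 summed to 1647 to 1679 and 6725 to 6914 CPM. Jejunum and ileum RNA stand in each library in a share that the labels do not give, so for every gene below a shift in that share and the genotype cannot be told apart. In bulk RNA, fewer cells of a type and less RNA per cell cannot be told apart either.

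Of the 8 genes, 7 were higher in SHP-KO and 1, Acsl3, was lower, each at an adjusted p under 0.05 in edgeR's quasi-likelihood test. In this comparison 70.6% of all tested genes passed (35.2% higher and 35.4% lower), so that share is the background for the count. The median log2 fold change of the 8 was 0.76, beside -0.012 over all tested genes. The groups' CPM values overlapped for none of the 8, and 72.0% of all tested genes had no overlap. Sizes ran from 17.3-fold for Fabp1 to 1.10-fold for Dbi. Tested against a change beyond 1.5-fold, 4 of the 8 were called higher (Cd36, Fabp1, Slc27a2 and Slc27a4) and Acsl3 lower, where 26.5% of all tested genes were called. In an exact test that assumed a CV of 0.2 between libraries the same 4 were higher and Acsl3 was lower, where 33.4% of all tested genes were called.

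**Figure D1:**
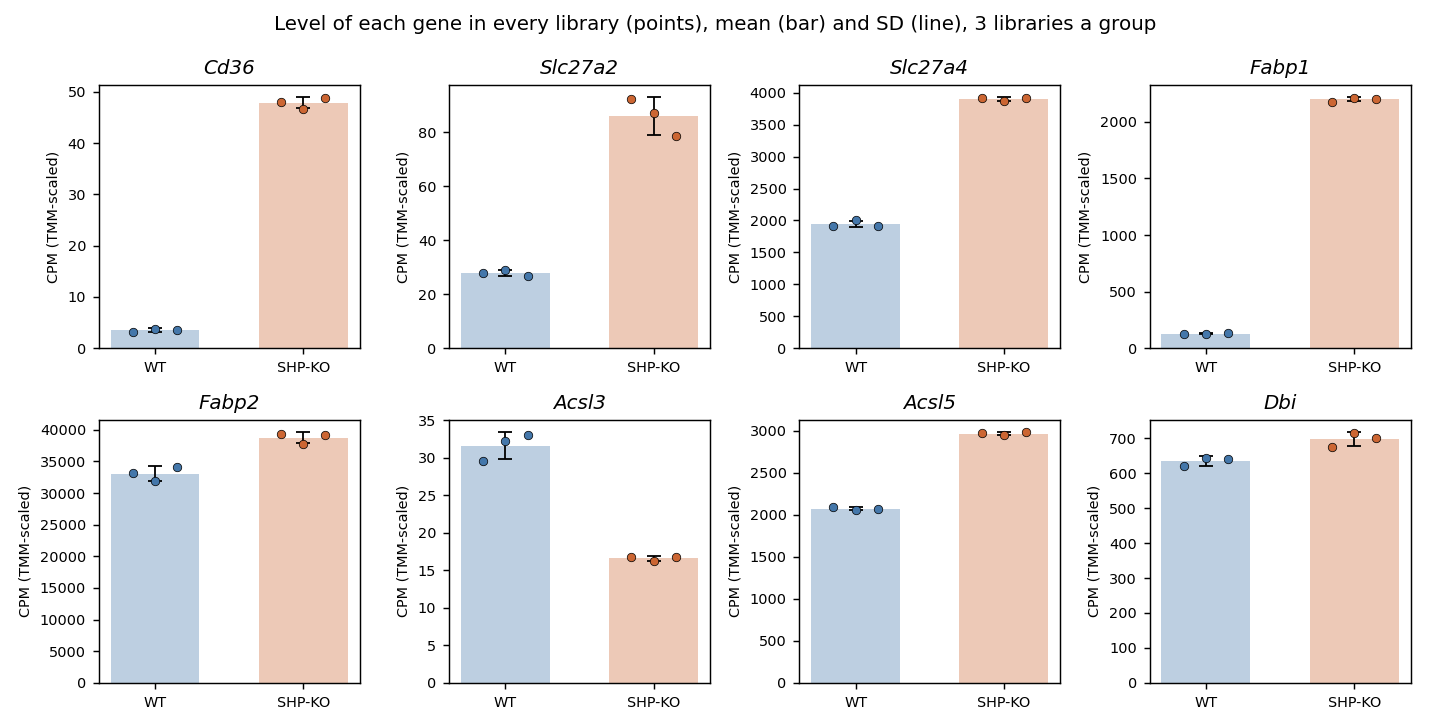
CPM (TMM-scaled, linear axes from 0) of the 8 genes in each of 3 WT and 3 SHP-KO libraries, with points for libraries, bars for means and lines for SD. WT and SHP-KO points do not overlap in any panel; Cd36 and Fabp1 go from 3.51 to 47.8 and from 127.0 to 2199 CPM, while Fabp2 and Dbi differ by less than 1.5-fold.

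Cd36 encodes a scavenger receptor at the cell surface that binds long-chain fatty acids and aids their uptake. It lies on chromosome 5 from 17287508 to 17394777 (mm9, minus strand), with 17 exon intervals. WT libraries held 43, 43 and 48 counts, or 3.14, 3.77 and 3.63 CPM, and SHP-KO libraries 377, 427 and 426 counts, or 48.0, 46.7 and 48.8 CPM. The SHP-KO values stood together, and all lay far above the WT values. The mean went from 3.51 ± 0.33 to 47.8 ± 1.06 CPM (SD, n = 3), which is 13.6-fold, or 3.77 on the log2 scale with SE 0.10 (edgeR adjusted p 2.7e-51). Of all tested genes 0.256% had a larger rise. Counting error alone gives a coefficient of variation (CV) of 15% at the WT depth, above the 9.40% seen between the WT libraries.

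Cd36 is also made by adipocytes, capillary endothelium, macrophages and platelets, whose markers were read in the same libraries. All 6 tested adipocyte markers of 10 were higher, with the list's summed level at 118.1 to 121.9 CPM in WT and 164.7 to 174.1 in SHP-KO, of which Cidec, which enterocytes also express, made up 116.1 and 137.7 CPM. The other 9 adipocyte markers summed to 2.98 to 4.97 CPM in WT and 30.1 to 35.4 in SHP-KO. The defining adipocyte genes Adipoq, Plin1, Lep and Retn had summed counts of 4, 1, 0 and 1 over the WT libraries and 18, 14, 4 and 7 over the SHP-KO libraries. Of 7 tested endothelial markers (12 in the list) 4 were higher, 1 was lower and 2 did not pass, with sums of 15.7 to 17.0 CPM in WT and 22.3 to 23.7 in SHP-KO. The higher ones were Cdh5 (3.87-fold), Esam (4.81-fold), Eng (3.50-fold) and Egfl7 (2.95-fold), the lower one was Tie1 (2.46-fold), and Pecam1, the most abundant over all libraries, was at 3.98 and 4.31 CPM and did not pass. Of 9 tested macrophage markers (11 in the list) 2 were higher, 4 were lower and 3 did not pass, with sums of 123.7 to 126.9 CPM in WT and 63.3 to 69.2 in SHP-KO. Lyz2 went from 72.4 to 12.3 CPM, while the other 10 macrophage markers summed to 52.3 to 54.5 CPM in WT and 51.0 to 57.1 in SHP-KO, with Cd68 and Itgam higher. Of 7 platelet and erythrocyte markers 4 had no count in any library, among them Ppbp and Gp9, and the 1 that was tested, Itga2b, was higher. The part of these cells in the difference of Cd36 was not tested.

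Slc27a2 encodes FATP2, an acyl-CoA synthetase for very long-chain fatty acids that also promotes fatty acid uptake. The gene spans 126378760 to 126413979 on chromosome 2 (mm9, plus strand) in 10 exon intervals. Its WT libraries had 380, 330 and 353 counts, or 27.8, 28.9 and 26.7 CPM. In SHP-KO it had 725, 796 and 685 counts, or 92.3, 87.1 and 78.5 CPM. SHP-KO libraries were all above 78 CPM and spread more than those of the other genes, with a CV of 8.09%. The log2 fold change was 1.63 with SE 0.063 (edgeR adjusted p 2.3e-40), or 3.09-fold.

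Slc27a4 encodes FATP4, the main member of this transporter family in enterocytes. It lies from 29658200 to 29673042 on the same chromosome (plus strand) in 13 exon intervals. WT libraries stood at 1920, 2002 and 1906 CPM and SHP-KO libraries at 3916, 3867 and 3913 CPM. Within each group the libraries differed by a CV of at most 2.65%, while the groups differed by 2.01-fold (log2 1.01, SE 0.023, edgeR adjusted p 1.7e-57).

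Per length, that is in CPM per kilobase of exon, Slc27a4 stood far above Slc27a2 in every library. The ratio of Slc27a4 to Slc27a2 per length was 39.7, 39.7 and 41.0 in WT and 24.4, 25.5 and 28.6 in SHP-KO. It was lower in all SHP-KO libraries than in any WT library, a log2 difference of -0.62 with an exact two-sided permutation p of 0.10, the smallest that 3 against 3 libraries allow (adjusted over 3 ratios, also 0.10). Slc27a4 made up 97.1% ± 0.12 of the family's level per length in WT and 95.9% ± 0.29 in SHP-KO (SD, n = 3). Relatives were rare: Slc27a1 and Slc27a3 were higher in SHP-KO, at log2 0.53 and 1.64 from means of 4.76 and 0.99 CPM in WT, and Slc27a5 and Slc27a6 were too low to test. The summed level per length of the 6 family genes was 499.0 ± 13.8 in WT and 1014 ± 7.32 CPM per kilobase in SHP-KO.

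Fabp1 had the largest difference of the 8. It lies from 71149882 to 71155017 on chromosome 6 (mm9, plus strand), with 4 exon intervals and 492 exon bases. WT libraries held 1731, 1406 and 1736 counts, or 126.4, 123.3 and 131.2 CPM. SHP-KO libraries held 17133, 20235 and 19240 counts, or 2180, 2213 and 2205 CPM. The 3 SHP-KO libraries lay within a CV of 0.774%, near the 0.728% that counting error alone gives. Fabp1 thus took 0.0125% to 0.0133% of all counts in WT and 0.215% to 0.218% in SHP-KO. The log2 fold change was 4.11 with SE 0.030 (edgeR adjusted p 2.0e-97), and 0.149% of all tested genes had a larger rise.

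Fabp2 was the most abundant transcript per length of all 23284 genes in both groups. It spans 122598310 to 122602424 on chromosome 3 (mm9, plus strand), also with 4 exon intervals, and has 645 exon bases. WT libraries stood at 33141, 31902 and 34185 CPM and SHP-KO libraries at 39329, 37729 and 39148 CPM, which is 3.23% to 3.46% and 3.71% to 3.88% of all counts. SHP-KO values were all above WT values, but the gap was small. The log2 fold change was 0.23 with SE 0.021 (edgeR adjusted p 5.2e-17), or 1.17-fold, and 34.9% of all tested genes had a larger rise. With libraries scaled on 15 pan-epithelial genes instead of TMM it was 0.34. Under TMM 5 of those 15 genes were themselves higher in SHP-KO, 8 were lower and 2 did not pass. Their median log2 fold change was -0.12. Fabp2 did not pass when a CV of 0.2 was assumed in place of the estimated spread (edgeR exact test, adjusted p 0.50).

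The binding proteins therefore stood in different proportions in the 2 groups, a value that needs no scaling between libraries. For each Fabp1 transcript per length there were 199.9, 197.4 and 198.7 of Fabp2 in WT libraries and 13.8, 13 and 13.5 in SHP-KO libraries. The log2 difference of the ratio Fabp1 to Fabp2 was 3.89, with an exact two-sided permutation p of 0.10, again the smallest possible (0.10 adjusted over 3 ratios). The ranges of the groups did not overlap.

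Among the other FABP genes, Fabp6, the ileal bile acid binding protein, fell from 10792 ± 252 to 144.5 ± 4.67 CPM (SD, n = 3). Fabp4, the adipocyte form, was higher at log2 2.92 (SE 0.17), from 1.86 to 14.3 CPM, and stands in the adipocyte list above. Fabp5, the epidermal form, was lower at log2 -0.94 (SE 0.19). Fabp3, Fabp7, Fabp9, Fabp12 and Pmp2 were too low to test. Fabp6 held 35.1% ± 0.82 of the family's level per length in WT and 0.575% ± 0.0081 in SHP-KO. Fabp1 held 0.325% ± 0.0047 and 6.89% ± 0.19, and Fabp2 64.5% ± 0.82 and 92.5% ± 0.18 (SD, n = 3). The summed level per length of the 10 genes was 79435 ± 2043 CPM per kilobase in WT and 64925 ± 1345 in SHP-KO, so the total was lower although both Fabp1 and Fabp2 were higher. This log2 ratio of -0.29 was -0.17 when scaled on pan-epithelial genes and -0.098 when summed without division by length, settings added after seeing the data.

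**Figure D2:**
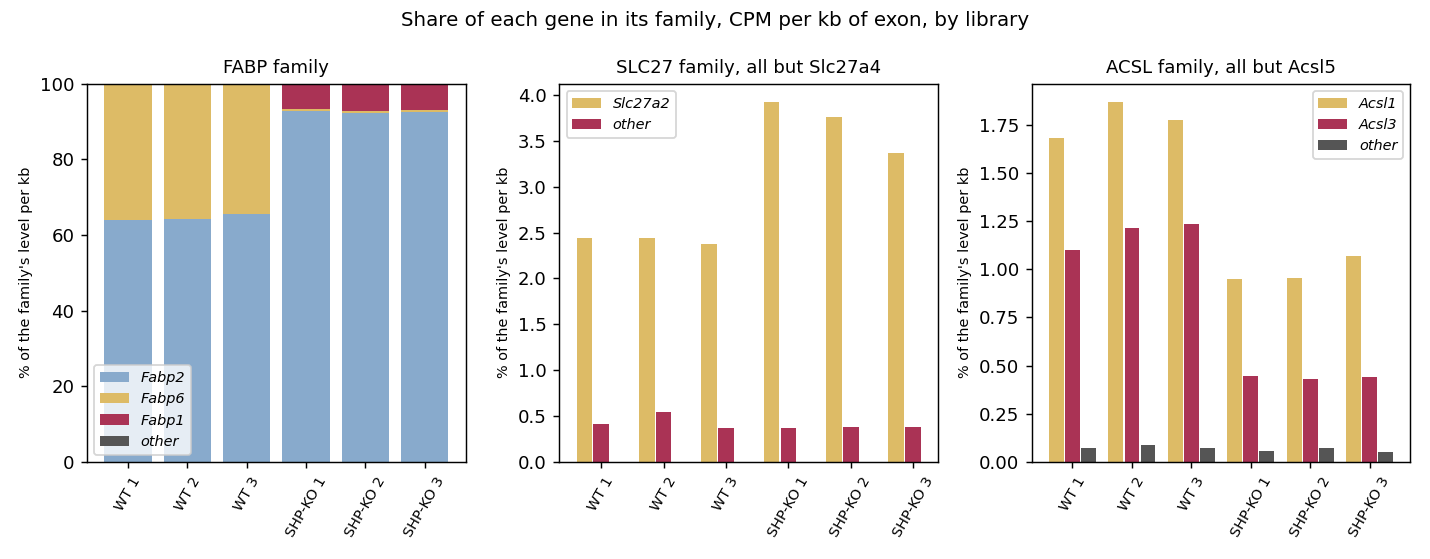
Share of each gene in its family's summed level (CPM per kb of exon), in percent, for each library; the left panel stacks all FABP genes to 100%, the other panels leave out the dominant Slc27a4 or Acsl5 from the drawing but not from the total. Fabp6 takes 35.1% of the FABP level in WT and 0.575% in SHP-KO, Fabp1 0.325% and 6.89%; Slc27a2 has a larger share in SHP-KO, Acsl1 and Acsl3 a smaller one.

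Acsl5 encodes an acyl-CoA synthetase of the outer mitochondrial membrane and endoplasmic reticulum that is abundant in small intestine. It lies on chromosome 19 from 55327859 to 55371118 (mm9, plus strand), with 22 exon intervals. Levels were 2088, 2051 and 2072 CPM in WT and 2970, 2950 and 2981 CPM in SHP-KO. The libraries of a group differed by a CV of 0.890% or less, and all SHP-KO libraries were higher. The log2 fold change was 0.52 with SE 0.023 (edgeR adjusted p 1.4e-36), or 1.43-fold, and 22% of tested genes had a larger rise. Under the assumed CV it did not pass (edgeR exact test, adjusted p 0.077).

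Acsl3, the synthetase linked to lipid droplets, was the only one of the 8 that fell. WT libraries held 405, 367 and 437 counts, or 29.6, 32.2 and 33.0 CPM, and SHP-KO libraries 132, 148 and 146 counts, or 16.8, 16.2 and 16.7 CPM. Every SHP-KO library was below every WT library. The log2 fold change was -0.93 with SE 0.084 (edgeR adjusted p 3.3e-17), which is 1.91-fold lower. The gene spans 78654400 to 78704318 on chromosome 1 (mm9, plus strand) in 16 exon intervals. Of its 3950 exon bases 419 (10.6%) also belong to Utp14b. Reads that fall there are not assigned to either gene under the counter's defaults, so that the count of Acsl3 comes from its other exon bases. Levels of Acsl3 per length were still divided by all 3950 bases. They are thus somewhat low in both groups, and the ratios of Acsl5 to Acsl3 below somewhat high. The log2 difference of that ratio between the groups does not depend on the length. Utp14b was lower too, at log2 -1.5 (SE 0.23), its summed counts being 199 in WT and 47 in SHP-KO.

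The ratio of Acsl5 to Acsl3 per length was 88.5, 79.9 and 78.6 in WT libraries and 221.6, 228.4 and 223.3 in SHP-KO libraries. The log2 difference was 1.45, with an exact two-sided permutation p of 0.10 (0.10 adjusted over 3 ratios), and the groups did not overlap. Of the other synthetases Acsl1, the form of liver and fat that also serves oxidation, was lower at log2 -0.34 (SE 0.068), from 46.8 ± 2.15 to 36.8 ± 2.64 CPM (SD, n = 3). Acsl4, which prefers arachidonic acid, was lower at log2 -1.0 (SE 0.30) from 2.45 CPM in WT. Acsl6, Acsbg1 and Acsbg2 were too low to test. The family's summed level per length was 677.6 ± 4.96 CPM per kilobase in WT and 955.8 ± 5.47 in SHP-KO, of which Acsl5 made up 97.0% and 98.5%.

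Dbi, whose product binds and shields acyl-CoA in the cytosol, differed least. It lies on chromosome 1 from 122009857 to 122017673 (mm9, minus strand), with 5 exon intervals. WT libraries stood at 619.8, 644.1 and 640.6 CPM and SHP-KO libraries at 674.6, 714.6 and 701.3 CPM. The lowest SHP-KO library was above the highest WT library. The log2 fold change of 0.14 with SE 0.027 (edgeR adjusted p 7.2e-06) was exceeded by 40.1% of tested genes. It was 0.25 when scaled on pan-epithelial genes, 0.097 without scaling factors and 0.075 without a filter on low counts. Under the assumed CV it did not pass (edgeR exact test, adjusted p 0.72). Its relatives with an acyl-CoA binding domain moved in both directions: Acbd4 was higher at log2 0.62 (SE 0.033), Acbd5, a peroxisomal form, was lower at -0.49 (SE 0.055), and Acbd3 and Acbd6 did not pass. Acbd7 had no count in any library.

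**Figure D3:**
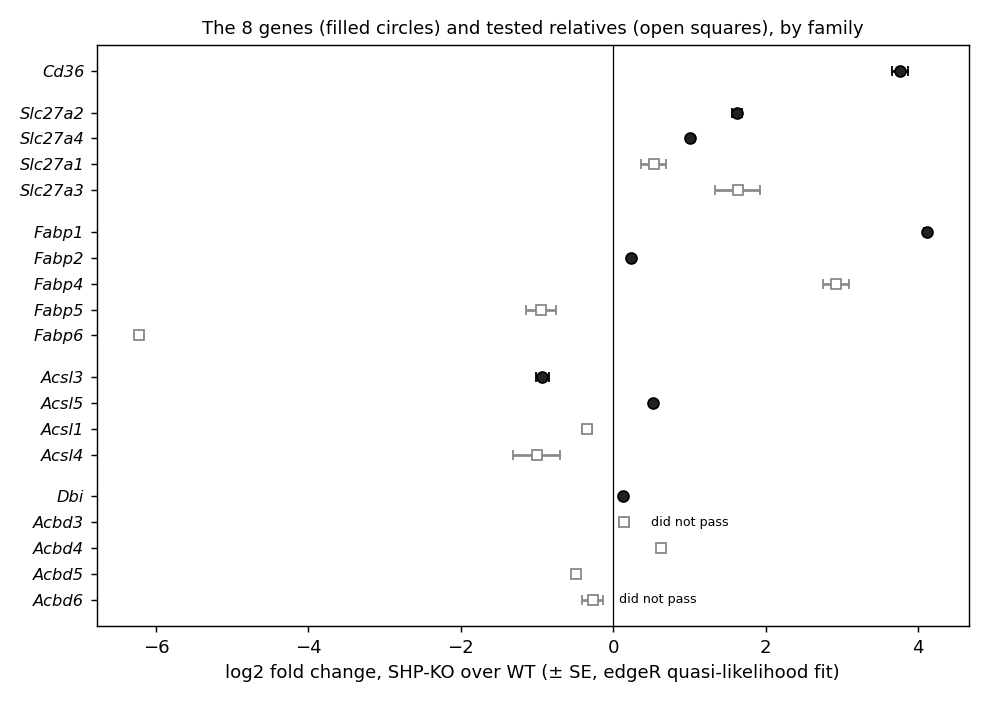
log2 fold change (SHP-KO over WT) with its SE for the 8 genes (filled circles) and the 11 tested relatives (open squares), ordered by family; points right of 0 are higher in SHP-KO. Fabp1 at 4.11 and Cd36 at 3.77 lie far right, Fabp6 at -6.22 far left, and genes of the FABP, ACSL and ACBD families lie on both sides of 0.

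Counting the relatives together, 11 of 22 passed the filter on low counts, of which 4 were higher, 5 lower and 2 did not pass. Over all tested genes 35.2% were higher and 35.4% lower. The median log2 fold change of the 11 relatives was -0.27.

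Levels per length ordered the 8 genes differently in the 2 groups. In WT the order was Fabp2 (51281 ± 1772 CPM per kilobase), Dbi (852.1 ± 17.6), Acsl5 (657.0 ± 5.85), Slc27a4 (484.7 ± 12.8), Fabp1 (258.1 ± 8.12), Slc27a2 (12.1 ± 0.49), Acsl3 (8.0 ± 0.45) and Cd36 (0.89 ± 0.084). In SHP-KO it was Fabp2 (60055 ± 1358), Fabp1 (4470 ± 34.6), Slc27a4 (972.7 ± 6.94), Acsl5 (941.6 ± 4.96), Dbi (935.3 ± 27.3), Slc27a2 (37.3 ± 3.02), Cd36 (12.2 ± 0.27) and Acsl3 (4.20 ± 0.085), all as mean ± SD of 3 libraries. In SHP-KO the neighbours Acsl5 and Dbi did not differ beyond their spread. All other neighbours in either order lay further apart than the sum of their SDs. Among all 23284 genes ranked by level per length, Fabp1 went from place 337 in WT to 10 in SHP-KO, Slc27a4 from 161 to 61, Acsl5 from 113 to 67 and Cd36 from 10142 to 4269.

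**Figure D4:**
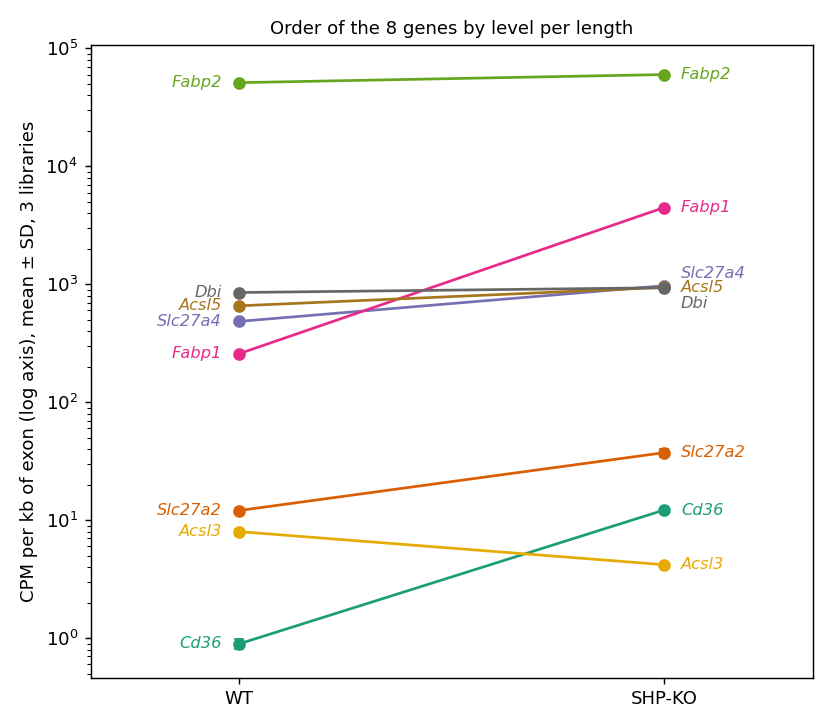
Level of each of the 8 genes in CPM per kb of exon on a log axis, mean and SD of 3 libraries, in WT (left) and SHP-KO (right). Fabp1 goes from 258.1 to 4470 and passes Dbi, Acsl5 and Slc27a4, which lie between 935.3 and 972.7 in SHP-KO; Cd36 passes Acsl3.

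Genes of the pathways that acyl-CoA feeds moved in both directions. Of 26 listed genes of acyl-CoA fates 24 were tested, 13 were higher, 6 lower and 5 did not pass. Of all tested genes, 35.2% were higher and 35.4% lower. The median log2 fold change of the 24 genes was 0.11. Acot12, a thioesterase, was higher at log2 3.21 (SE 0.048), from 25 ± 1.09 to 229.9 ± 5.68 CPM (SD, n = 3). Dgat1, which adds the last acyl chain of triglyceride, was higher at log2 0.90 and Agpat9, the glycerol-phosphate acyltransferase GPAT3, at 0.81. Acadvl, of mitochondrial oxidation, was higher at 0.44. On the lower side, Agpat2, which makes phosphatidic acid, was at -0.88, Cpt1a, the gate of acyl-CoA into mitochondria, at -0.72, Agpat6, the acyltransferase GPAT4, at -1.05 and Acadm, the medium-chain dehydrogenase, at -0.44.

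Transcription factors known to act on such genes also moved in both directions, with 7 of 17 higher, 10 lower and a median log2 fold change of -0.32. The shares over all tested genes were 35.2% higher and 35.4% lower. Ppara, the PPAR form best known for fatty acid genes, fell from 75.0 ± 2.02 to 42.1 ± 2.66 CPM (SD, n = 3), a log2 fold change of -0.83. Hnf4a, a main regulator of enterocyte genes, was at -0.71, Cdx2, which sets intestinal identity, at -0.92, and Nr1h4, the bile acid receptor FXR, at -1.90. Higher were Creb3l3, a lipid-responsive factor, at 0.60, Gata4, a factor of proximal small intestine, at 1.05, Esrra at 0.54 and Ppargc1a, a coactivator of oxidation genes, at 0.75.

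For each of the genes except Dbi, the 2 genes with the most similar profile over the 6 libraries were taken from 7429 genes with a mean of at least 10 CPM, by the root mean square difference of centred log2 CPM. With 2 groups, likeness mostly reflects the size of the group difference. Nearest to Fabp1 were Slc36a1, an amino acid transporter, and Dnase1 (differences of 0.070 and 0.088 on the log2 scale). Nearest to Cd36 were Slc23a1, a vitamin C transporter, and H2-DMb1, of antigen loading (0.13 each). Slc27a4 was nearest to Pcyt2, of phospholipid synthesis, and Soat2, which esterifies cholesterol (0.023 and 0.024), and Slc27a2 to Gcfc1 and Mrm1 (0.065 and 0.071). Acsl3 was nearest to Sqrdl and Cdx2 (0.035 and 0.037). Nearest to Fabp2 were Maff and the lipid carrier Scp2 (0.011 and 0.016), and to Acsl5 Stk25 and 2810474O19Rik (0.0058 and 0.016).

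The authors' deposited table gives the same directions for all 8 genes. In the authors' deposited table Fabp1 has a log2 fold change of 4.10 and Cd36 of 3.75, both with edgeR p-values adjusted by the authors of 1.1e-36 or less. For Fabp2, Acsl5 and Dbi the authors' deposited table has log2 fold changes of 0.21, 0.50 and 0.12 with edgeR adjusted p-values of 0.53, 0.086 and 0.75. Slc27a2, Slc27a4 and Acsl3 stand in the authors' deposited table at 1.61, 0.99 and -0.95, with edgeR adjusted p-values of 1.8e-09, 2.4e-04 and 9.3e-04. The difference in calls thus falls on the 3 genes with changes under 1.5-fold.

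**Figure D5:**
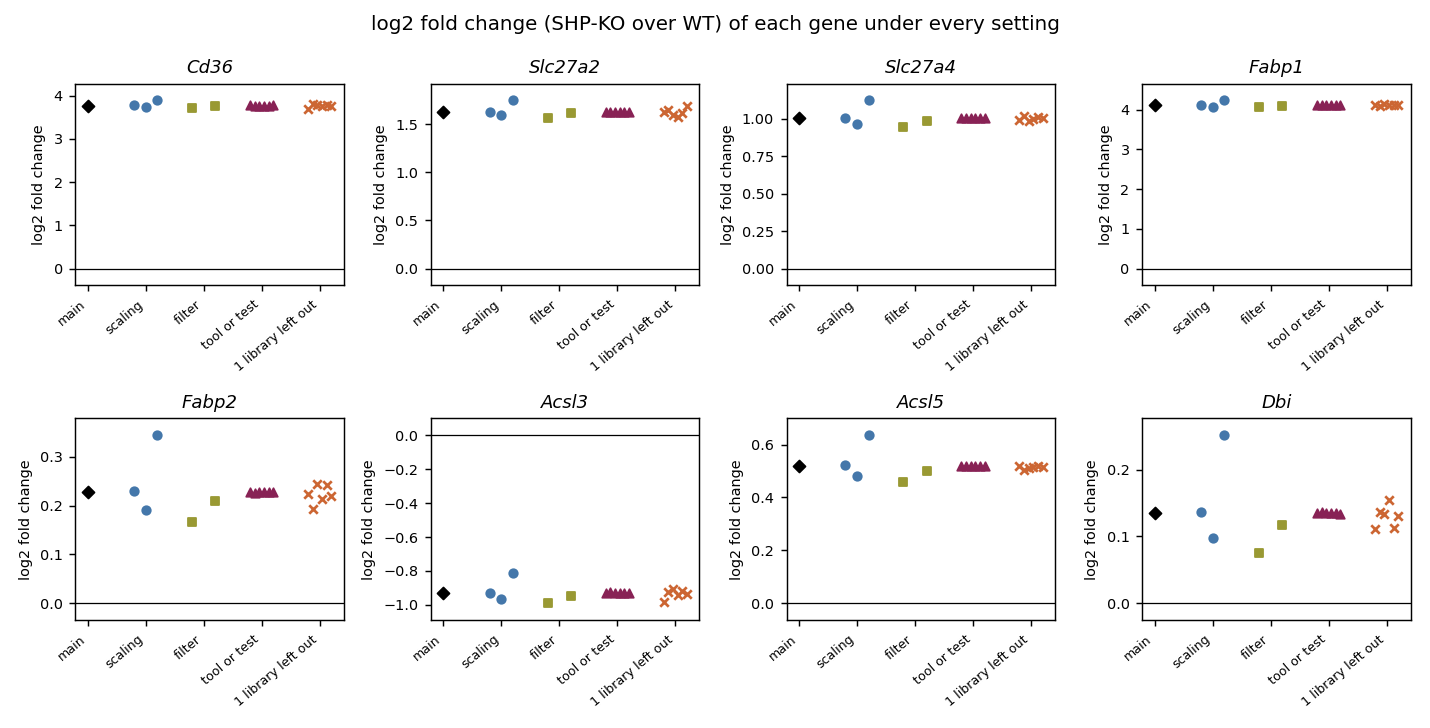
log2 fold change of each gene (each panel with its own axis, line at 0) in the main analysis, 3 other scalings, 2 other filters, 6 other tools or tests and with each of the 6 libraries left out. No point crosses 0; points for Fabp2 and Dbi move most for their size, from 0.17 to 0.34 and from 0.075 to 0.25.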

How the data were processed

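Per the file headers, the authors counted reads over the exons of each gene with featureCounts 1.5.2, ignoring strand, and the deposited counts are not normalized. Build mm9, the aligner STAR 2.6.0c, Trimmomatic 0.38, FastQC 0.11.5, edgeR and bcl2fastq 2.17.1.14 are named in the submitters' processing notes. A further table deposited by the authors gives, per gene, a log2 fold change, a log2 mean CPM, a p-value and its adjusted value. Exon lengths are those of the count files.

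Genes passing filterByExpr (minimum count 10) went, after TMM scaling, into the robust quasi-likelihood test of edgeR 4.0.16 (R 4.3.3), with Benjamini-Hochberg adjustment over all 12106 tested genes and a threshold of 0.05. Standard errors come from that fit. CPM are TMM-scaled. The 3 ratios were tested by exact permutation. The script was tested on simulated counts. Alternatives used DESeq2 1.42.0, limma 3.58.1, other scalings and filters, a 1.5-fold threshold, an assumed CV of 0.2, a replicate block and each library left out. Upstream windows come from RefSeq (GRCm38.p6), with all 8 genes matched. Figures were drawn with matplotlib 3.10.9.

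The genes, lists and tests were chosen with earlier results of these data known. Named genes are the 8, Nr0b2, tested relatives, up to 4 genes per direction of 2 lists by smallest p, and the 2 nearest profiles per gene (those of Dbi are not reported here); Utp14b and single markers were added after their values were seen, as were list sums without the most abundant gene. Whether each library is a separate animal is not stated in the labels; the p-values rest on the spread of these libraries alone, and that spread may be technical. Counting error is the only error covered by counting CVs.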

Additional observations from a re-analysis of the deposited data

How the results depend on the processing

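All 8 log2 fold changes kept their sign under the 17 alternatives run for each. Cd36, Fabp1, Slc27a2, Slc27a4 and Acsl3 passed in all of them. With an assumed CV of 0.2 (edgeR exact test), 4 of the 8 genes were higher in place of 7, and Fabp2, Acsl5 and Dbi did not pass at log2 0.23, 0.52 and 0.13 (adjusted p 0.50, 0.077 and 0.72). Against a 1.5-fold change (edgeR glmTreat) 4 were higher as well, and the same 3 did not pass at 0.23, 0.52 and 0.14, each with an adjusted p of 1. Over all genes, 4260 higher and 4283 lower became 2164 and 1877 with the assumed CV and 1802 and 1404 against 1.5-fold. Among relatives, 4 higher and 5 lower became 3 and 3 with the assumed CV and 2 and 2 against 1.5-fold. Scaling on pan-epithelial genes moved the median of all genes by 0.12 on the log2 scale and the share of higher calls from 49.9% to 60.1%. Leaving out any 1 library kept 7 higher and 1 lower of the 8 genes. Libraries with the same replicate number did not visibly deviate together (correlations of 0.013, 0.014 and -0.0063). With a spread between libraries near counting error, this cannot show whether the numbers pair samples. With the replicate block, 4266 genes were higher and 4307 lower, and 7 and 1 of the 8 genes, and not every library correlated best with its own number. For ratios the paired exact sign-flip test gave p = 0.25, the smallest that 3 pairs allow.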

Other observations

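Libraries of a group were close to each other. The chi-square of counts per degree of freedom between 2 libraries of a group, over genes with at least 20 summed counts, was 1.33 to 1.98, where counting error alone gives about 1, and edgeR's common biological CV was 0.0297. The CV between libraries was below that of counting error for Cd36 in WT (9.40% against 15%) and in SHP-KO (2.22% against 4.94%), Slc27a2 in WT (4.05% against 5.31%), Acsl3 in SHP-KO (2.02% against 8.39%) and Acsl5 in SHP-KO (0.527% against 0.627%). In the other groups of these 8 genes it was above, closely so for Fabp1 in SHP-KO (0.774% against 0.728%) and Acsl3 in WT (5.68% against 4.98%). For Fabp2, the most abundant of the 8 genes, the CV was 3.45% in WT and 2.26% in SHP-KO, against a counting CV of 0.154% and 0.174%.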
